A study of Mus musculus with 8 samples.

Results

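The extracellular matrix that surrounds brain cells is built on hyaluronan, and the transcripts of 10 genes whose products bind hyaluronan or cross-link that scaffold are described here in astrocytes sorted from mouse cortex. They are the inter-alpha-trypsin inhibitor heavy chains Itih3 and Itih5, the lecticans Ncan, Bcan, Vcan and Acan, the link proteins Hapln1 and Hapln4, and the tenascins Tnr and Tnc. The rows were taken by gene symbol, and all 10 symbols were found among the 24047 rows of the gene counts and also in the table of TPM, a unit that scales for transcript length. The 10 genes were picked by name with earlier results of the same 8 libraries known, so their differences between genotypes are given as a description and carry no test. After a filter that asks for about 10 counts in at least 4 libraries, 8 of the 10 were among the 10954 genes fitted, and Acan and Tnc were not.

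The mutant libraries (Ptch1cKO, n = 4) came from Glast-CreERT2; Ptch1fl/fl; Ai14 mice, in which Cre acts on both floxed copies of Ptch1, the receptor that holds the Sonic hedgehog pathway off. The control libraries (WT, n = 4) came from Glast-CreERT2; Ai14 mice, so both groups carried the tamoxifen-inducible Cre under the Glast (Slc1a3) promoter and the Ai14 reporter, which turns on tdTomato where Cre has acted. Both received tamoxifen intraperitoneally on postnatal days 12 to 14. Cells positive for tdTomato were sorted from the somatosensory cortex between postnatal days 23 and 25. Whether each library came from 1 animal is not stated in the labels, so the spread between libraries may be technical in part. Amplified cDNA was enriched by exome capture, so that the level of 1 gene relative to another also reflects how well its exons were captured.

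As background, lecticans are chondroitin sulfate proteoglycans whose amino-terminal end binds hyaluronan and whose carboxy-terminal end binds tenascins, while link proteins clamp the lectican onto the hyaluronan chain. Heavy chains of the inter-alpha-trypsin inhibitor family can be transferred onto hyaluronan and so change how it packs. In cortex these molecules form the loose matrix around synapses and the dense perineuronal nets of some interneurons, and astrocytes, oligodendrocyte lineage cells and neurons each contribute some of them.

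The libraries held 4061274 to 7043378 counts in Ptch1cKO and 4958119 to 7206462 counts in WT. The targeted gene Ptch1 averaged 223 ± 40.8 CPM in Ptch1cKO and 357 ± 122 CPM in WT (CPM, counts relative to the scaled library size, SD, n = 4 each), with overlapping ranges, and the count covers the whole gene rather than the floxed part. The summed level of 10 astrocyte markers was 15796 to 32318 CPM in Ptch1cKO and 20577 to 30423 CPM in WT. Slc1a2 averaged 15926 CPM in Ptch1cKO and 18620 CPM in WT, and Aldoc 5709 and 5408 CPM, so the sum mainly follows them. The log2 fold change was -0.23 for Slc1a2 and -0.03 for Sox9, but 0.50 for Gja1 and 0.80 for Gjb6, and none of these was called. The sort also held other RNA. The sum of 8 oligodendrocyte markers was 17509 to 23140 CPM in Ptch1cKO and 13802 to 26702 CPM in WT, and that of 10 neuronal markers was 11893 to 15181 CPM in Ptch1cKO and 12792 to 14500.5 CPM in WT. The sum of 8 endothelial markers was 4.79 to 16.05 CPM in Ptch1cKO and 4.71 to 18.7 CPM in WT. None of 7 marker lists passed as a difference between genotypes (exact two-sided permutation test over 70 assignments, adjusted p = 0.80 to 0.971). The smallest unadjusted p this design can give is 0.0286. After adjustment over 7 lists, a single list could not pass, however far apart its groups lay. The test therefore does not show that cell content was equal. In such a bulk library, fewer cells of a type and less RNA per cell cannot be told apart. Xist, made from the inactive X chromosome in females, reached at most 4 counts in each Ptch1cKO library. In WT it had 1148 counts in replicate 2 and 612 in replicate 3, and at most 4 in replicates 1 and 4, so these 2 WT libraries had a female pattern.

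The promoter windows of both heavy chain genes are shown because Itih3 is the member that stood apart between genotypes and Itih5 is its relative that did not. They are RefSeq windows of 250 bases before to 50 bases after the annotated start on GRCm38.p6, the assembly of mm10, at chr14:30923538-30923837 (minus strand) for Itih3 and chr2:10153293-10153592 (plus strand) for Itih5, and capitals mark the letters TATAAA.
Itih3: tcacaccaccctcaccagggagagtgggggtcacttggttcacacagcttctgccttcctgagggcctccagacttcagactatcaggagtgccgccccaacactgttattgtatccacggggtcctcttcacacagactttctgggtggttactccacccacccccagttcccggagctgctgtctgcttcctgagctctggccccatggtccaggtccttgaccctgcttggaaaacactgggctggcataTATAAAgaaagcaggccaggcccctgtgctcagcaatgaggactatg
Itih5: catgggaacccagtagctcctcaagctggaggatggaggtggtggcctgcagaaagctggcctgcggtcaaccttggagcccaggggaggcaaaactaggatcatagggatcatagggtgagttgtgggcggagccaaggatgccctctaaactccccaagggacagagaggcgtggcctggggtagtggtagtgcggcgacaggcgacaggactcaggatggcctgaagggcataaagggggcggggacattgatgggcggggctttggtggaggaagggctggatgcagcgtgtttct
Windows were found for 9 of the 10 members, not for Hapln4. The letters TATAAA, searched on both strands, lay in windows of Itih3, Ncan and Tnc, and 13.6% of 32817 windows of all genes hold them. In Itih3 they start at base 4 after the RefSeq start. The gene position given below, from GENCODE, begins at 30923760 on the minus strand, upstream of that start. The place of the letters thus depends on the annotation. The Gli consensus GACCACCCA, the sequence that the transcription factors of the Hedgehog pathway bind, was found on either strand in 0 of these windows and in 0.253% of all windows. Only these exact letters were searched, so sites that differ by a base were not counted. With so low a share over all windows, 0 among the 10 windows of the members says little about them. Itih3 had 3 CG pairs in its window and Itih5 had 9, with a median of 7 over all windows.

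Among the heavy chains, Itih3 was higher in every Ptch1cKO library. Itih3 encodes a secreted heavy chain that in mouse brain is made mainly by astrocytes, and it lies on chromosome 14 at 30908572 to 30923760 of mm10, minus strand. It had 75.8, 198, 58.8 and 178 CPM in Ptch1cKO replicates 1 to 4, against 32.6, 18.1, 43.7 and 21.8 CPM in WT replicates 1 to 4. The groups did not overlap, and Ptch1cKO replicates 2 and 4 stood well above replicates 1 and 3. The mean was 128 ± 70.4 CPM in Ptch1cKO and 29.1 ± 11.6 CPM in WT (SD, n = 4 each), a fold change of 4.38 or 2.13 on the log2 scale (standard error, SE, 0.41, 95% interval 1.22 to 3.04). On that scale Itih3 ranked 5 from the top of the 10954 genes, but it was not called by the edgeR quasi-likelihood test over all of them. It was called higher in 2 of 16 other settings. These were DESeq2, which called 0.509% of genes higher, and edgeR without Ptch1cKO replicate 3, which called 0.0358% higher. Replicate 3 was the lowest Ptch1cKO library for Itih3. Because Itih3 was chosen with this contrast known, these calls are a description and carry no weight as a test. Its spread inside the mutant group was wide, with an SD of 0.87 in log2 CPM, larger than that of 97.0% of the genes. In WT the SD was 0.56, larger than that of 79.5% of the genes. Leaving out single libraries gave folds of 3.59 to 5.27, the lowest without Ptch1cKO replicate 2 and the highest without WT replicate 3.

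**Figure D1:**
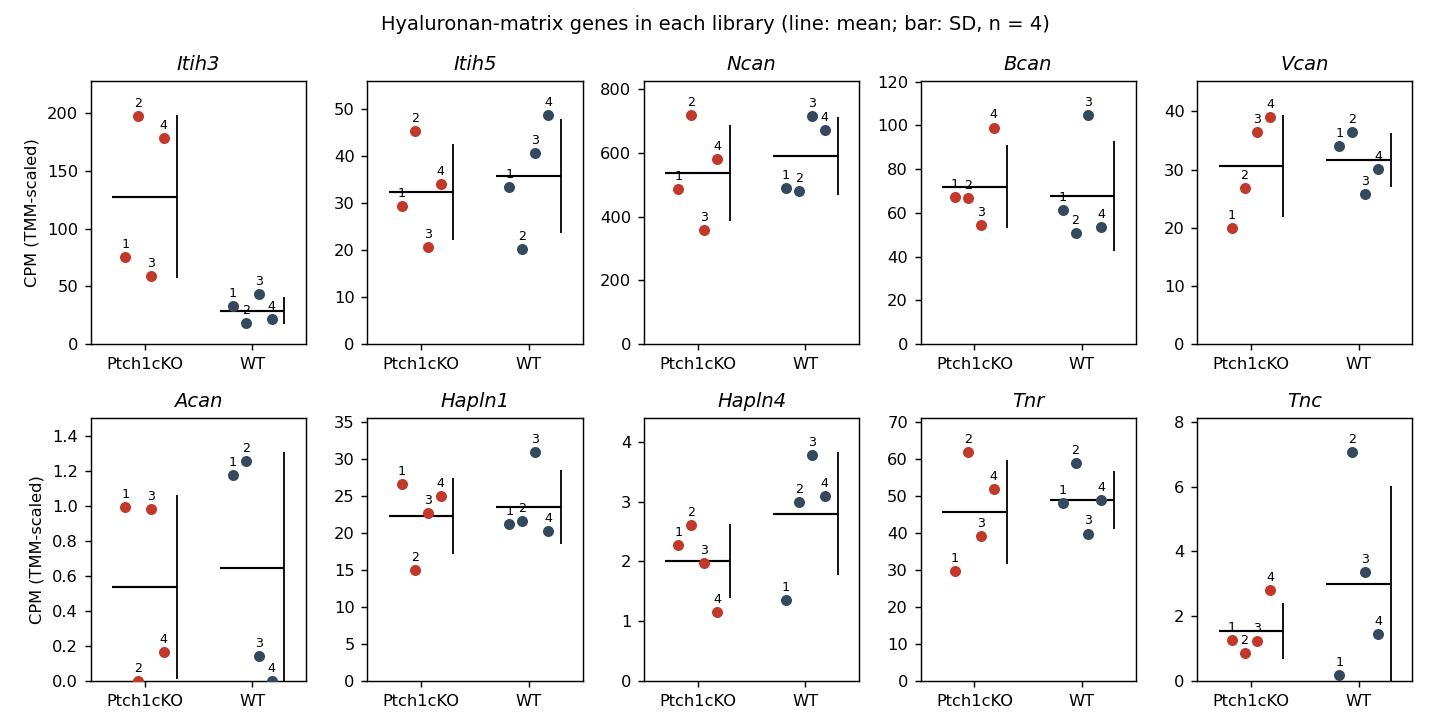
CPM of the 10 genes in each library, with Ptch1cKO left of WT, points numbered by replicate, a line for the mean and a bar for the SD (n = 4). Itih3 is the panel in which the groups part, at 58.8 to 198 CPM in Ptch1cKO and 18.1 to 43.7 CPM in WT.

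Itih5, a heavy chain relative (chromosome 2, 10153571 to 10256529, plus strand), did not follow Itih3. Its level was 29.4, 45.2, 20.7 and 34.0 CPM in Ptch1cKO replicates 1 to 4, against 33.3, 20.1, 40.5 and 48.6 CPM in WT replicates 1 to 4, and the groups overlapped along most of their range. The log2 fold change was -0.13 (SE 0.27), a fold between 0.608 and 1.37 at 95%. Per transcript length, the ratio of Itih3 to Itih5 TPM was 7.38 to 15.0 in Ptch1cKO libraries and 1.29 to 3.09 in WT libraries. Itih3 lies in a cluster with 2 other heavy chain genes. Itih1, 5.4 kb away, had 1 count over the 4 Ptch1cKO libraries and 0 over the 4 WT libraries. Itih4, 6.2 kb away on the other side, had 0 counts in Ptch1cKO and 3 in WT, where Itih3 itself had 2988 counts in Ptch1cKO and 728 in WT. Itih2, which lies 22.2 kb from Itih5, had 6 counts in Ptch1cKO and 11 in WT, and Ambp, which encodes the bikunin light chain that carries the heavy chains in serum, had 1 count in each group.

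The lecticans showed no such separation. Ncan encodes neurocan, the lectican most abundant in developing brain, and lies on chromosome 8 at 70093085 to 70120873, minus strand. Ncan had 487, 717, 359 and 581 CPM in Ptch1cKO replicates 1 to 4, against 491, 479, 716 and 673 CPM in WT replicates 1 to 4. The highest library of each group was almost level, and Ptch1cKO replicate 3 was the lowest of all 8. The log2 fold change was -0.14 (SE 0.19). Ncan moved with the astrocyte marker sum across libraries. The 3 libraries highest in Ncan were Ptch1cKO replicate 2, WT replicate 3 and WT replicate 4, which had the 3 highest marker sums at 32318, 30423 and 29576 CPM, and Ptch1cKO replicate 3 had the lowest at 15796 CPM. WT replicates 3 and 4 also share a column prefix that WT replicates 1 and 2 do not have. The part of astrocyte content, or of that prefix, in the Ncan values was not tested. Within Ptch1cKO, Itih3 and the marker sum ranked the replicates alike, from highest to lowest 2, 4, 1 and 3. Within WT both were highest in replicate 3 and lowest in replicate 2, while replicates 1 and 4 changed order. The marker sums of Ptch1cKO replicates 4 and 1 were 23863 and 23587 CPM, and Itih3 was 178 and 75.8 CPM in them. The part of astrocyte content in the Itih3 values was not tested.

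**Figure D2:**
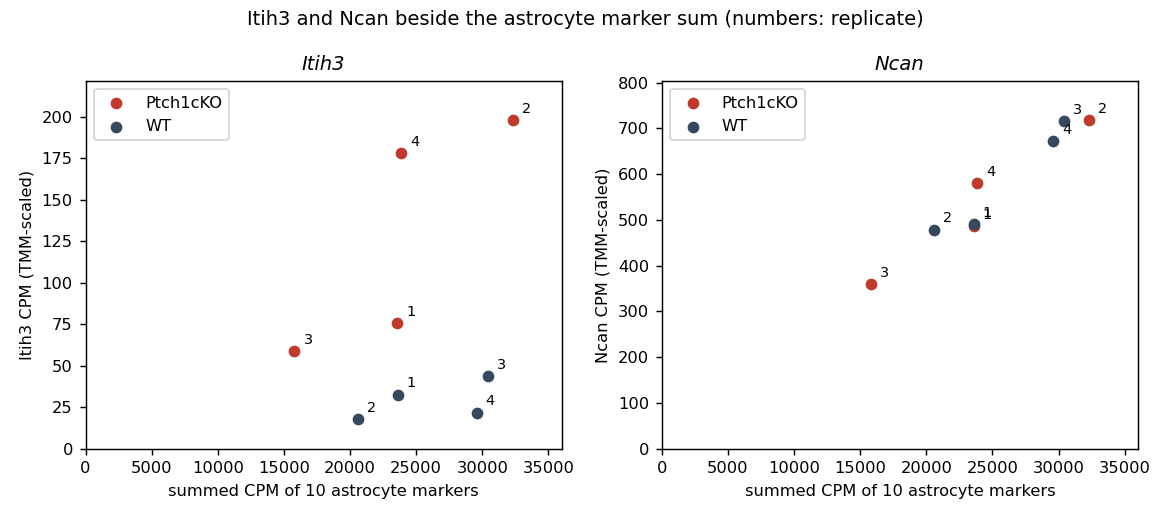
Itih3 (left) and Ncan (right) in CPM against the summed CPM of 10 astrocyte markers, 1 point per library, numbered by replicate. The sum is made up mostly of Slc1a2 and Aldoc. Ncan is lowest in Ptch1cKO replicate 3, which also has the lowest marker sum at 15796 CPM, below the 20577 CPM of the lowest WT library. Itih3 is also the lowest of its group in that library, and within Ptch1cKO it ranks the replicates as the sum does. Itih3 was 75.8 CPM in Ptch1cKO replicate 1 and 32.6 CPM in WT replicate 1, whose sums were 23587 and 23594 CPM. That is 1 library of each genotype, picked after the values were seen, and the part of astrocyte content was not tested.

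Bcan encodes brevican, a lectican of the adult perisynaptic matrix (chromosome 3, 87987531 to 88000230, minus strand). It had 67.3, 66.7, 54.6 and 99.0 CPM in Ptch1cKO replicates 1 to 4, against 61.4, 50.9, 105 and 53.7 CPM in WT replicates 1 to 4. A single library stood high in each group, Ptch1cKO replicate 4 and WT replicate 3, and the groups overlapped. The log2 fold change was 0.09 (SE 0.24), and its sign turned in 6 of 16 other settings, from -0.10 to 0.38. Vcan encodes versican, a large lectican associated with oligodendrocyte precursors and myelin (chromosome 13, 89655312 to 89742509, minus strand). It had 20.0, 26.8, 36.4 and 39.0 CPM in Ptch1cKO replicates 1 to 4, against 34.0, 36.5, 25.9 and 30.1 CPM in WT replicates 1 to 4. The Ptch1cKO libraries lay both above and below those of WT, and the log2 fold change was -0.05 (SE 0.22). The summed level of 9 oligodendrocyte precursor markers was 226 to 310 CPM in Ptch1cKO and 134 to 273 CPM in WT, and its part in the Vcan values was not tested.

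Acan encodes aggrecan, the lectican of perineuronal nets, and lies on chromosome 7 at 79053483 to 79115099, plus strand. It had 7, 0, 4 and 1 counts in Ptch1cKO replicates 1 to 4, against 7, 8, 1 and 0 counts in WT replicates 1 to 4. Few or no reads came from either group, and a difference was not detectable at this depth. Expressed as shares of the summed lectican TPM, neurocan transcripts made up 77.5% ± 4.52 in Ptch1cKO and 80.4% ± 3.51 in WT (SD, n = 4 each). Brevican transcripts made up 20.2% ± 3.85 in Ptch1cKO and 17.3% ± 3.61 in WT, and versican transcripts 2.28% ± 1.01 in Ptch1cKO and 2.20% ± 0.738 in WT. The mix of lecticans thus had overlapping ranges in both genotypes.

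Each lectican gene has a link protein gene beside it in the genome, with 0 coding genes between them. Hapln1 encodes the widely expressed link protein and lies 43.7 kb from Vcan (chromosome 13, 89539796 to 89611652, plus strand). Hapln1 had 26.6, 14.9, 22.6 and 24.96 CPM in Ptch1cKO replicates 1 to 4, against 21.2, 21.5, 30.9 and 20.2 CPM in WT replicates 1 to 4. Ptch1cKO replicate 2 was the lowest and WT replicate 3 the highest of the 8, with the other 6 between them, and the log2 fold change was -0.08 (SE 0.23). Hapln4, the brain link protein also called Bral2, lies 2.2 kb from Ncan (chromosome 8, 70083457 to 70090862, plus strand). Hapln4 had 16, 15, 8 and 7 counts in Ptch1cKO replicates 1 to 4, against 8, 19, 27 and 15 counts in WT replicates 1 to 4. The level was 2.001 ± 0.620 CPM in Ptch1cKO and 2.80 ± 1.03 CPM in WT (SD, n = 4 each), the ranges overlapped, and the log2 fold change of -0.48 had an SE of 0.45. Without the 2 WT libraries of female pattern it was -0.13. Per transcript length these neighbours differed widely in level, Ncan averaging 191 TPM and Hapln4 1.43 TPM in Ptch1cKO, and Ncan 226 TPM and Hapln4 2.2 TPM in WT. The link protein genes next to Bcan and Acan were scarcely detected, Hapln2 with 7 counts in Ptch1cKO and 6 in WT, and Hapln3 with 4 counts in each group.

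Of the tenascins, Tnr encodes tenascin-R, the partner that cross-links lecticans in nets and at nodes of Ranvier, made by oligodendrocytes and some interneurons (chromosome 1, 159523769 to 159931729, plus strand). Tnr had 29.8, 61.9, 39.1 and 51.9 CPM in Ptch1cKO replicates 1 to 4, against 48.1, 58.8, 39.8 and 48.8 CPM in WT replicates 1 to 4. The mutant libraries spread around those of WT, with the highest and the 2 lowest values all in Ptch1cKO, and the log2 fold change was -0.10 (SE 0.22). Tnc encodes tenascin-C, a matrix protein of immature and reactive astrocytes that falls with age (chromosome 4, 63959785 to 64047015, minus strand). Tnc had 9, 5, 5 and 17 counts in Ptch1cKO replicates 1 to 4, against 1, 45, 24 and 7 counts in WT replicates 1 to 4. The highest WT values were in replicates 2 and 3, the libraries of female pattern, and the WT libraries span the Ptch1cKO ones. Over the 4 libraries of a group there were 36 counts in Ptch1cKO and 77 in WT, and the part of sex in this was not tested. An exon of Tnr overlaps opposite-strand Gm38039 and one of Tnc overlaps 8030451A03Rik, and reads from either strand may be mixed there, because the sources used here name no strand setting.

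**Figure D3:**
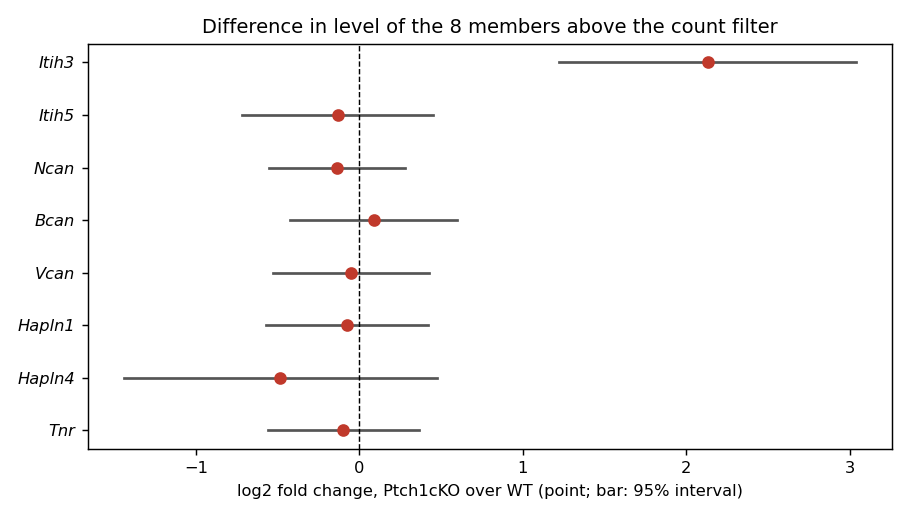
Log2 fold change of Ptch1cKO over WT for the 8 members above the count filter, with 95% intervals from the edgeR fit. The interval of Itih3, 1.22 to 3.04, lies apart from 0, and those of the other 7 include it. Because the genes were chosen with these values known, the plot is a description.

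Counted over the genes that passed the filter, 2 of 8 members had positive and 6 had negative fold changes, and their median log2 fold change was -0.09, beside a median of -0.0019 over all genes. Called at a Benjamini-Hochberg adjusted p under 0.05 were 0 members as higher and 0 as lower, where 0.0822% of all genes fitted were called higher and 0.0183% lower (11 genes in all, edgeR quasi-likelihood test), and Itih3 was the 1 member called in any other setting, as given above. The one member whose groups did not overlap was Itih3, where 5.02% of all genes had groups without overlap. A difference of at least 2-fold was found for Itih3 alone among the 8, where 2.75% of all genes had one. Nothing is read from these counts, since the members were chosen on the same contrast. For the 7 others the lowest limit of a 95% interval was a fold of 0.369 (Hapln4, the rarest of them), and the next lowest was 0.608 (Itih5). The highest limit was 1.51 (Bcan). Changes inside a gene's own interval were not resolved, and the values do not show that these genes were equal in both genotypes.

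Per transcript length, the order of mean TPM in Ptch1cKO libraries ran Ncan 191 ± 59.3, Itih3 118 ± 67.5, Bcan 48.5 ± 14.04, Tnr 21.6 ± 7.11, Hapln1 11.2 ± 2.64, Itih5 10.4 ± 3.57, Vcan 5.22 ± 1.44, Hapln4 1.43 ± 0.461, Tnc 0.554 ± 0.319 and Acan 0.181 ± 0.177 (SD, n = 4). In WT libraries Ncan led with 226 ± 49.7 TPM, followed by Bcan with 49.1 ± 17.8 TPM, Itih3 with 28.7 ± 11.1 TPM and Tnr with 24.98 ± 4.12 TPM (SD, n = 4). Below them came Hapln1 with 12.8 ± 2.65 TPM, Itih5 with 12.4 ± 4.39 TPM, Vcan with 5.87 ± 0.844 TPM, Hapln4 with 2.2 ± 0.82 TPM, Tnc with 1.17 ± 1.16 TPM and Acan with 0.237 ± 0.246 TPM. Itih3 and Bcan changed places between the genotypes, which restates the Itih3 difference known when the genes were chosen. The places of Hapln1, Itih5, Vcan, Hapln4, Tnc and Acan were the same in both genotypes. Ranges of neighbours in the order overlapped between Ncan and Itih3 and between Itih3 and Bcan in Ptch1cKO, and between Bcan and Itih3 and between Itih3 and Tnr in WT. In both genotypes they overlapped between Hapln1 and Itih5, Hapln4 and Tnc, and Tnc and Acan. In Ptch1cKO they also overlapped between Itih5 and Vcan. Tnr was above Hapln1, and Vcan above Hapln4, in every library of both groups.

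**Figure D4:**
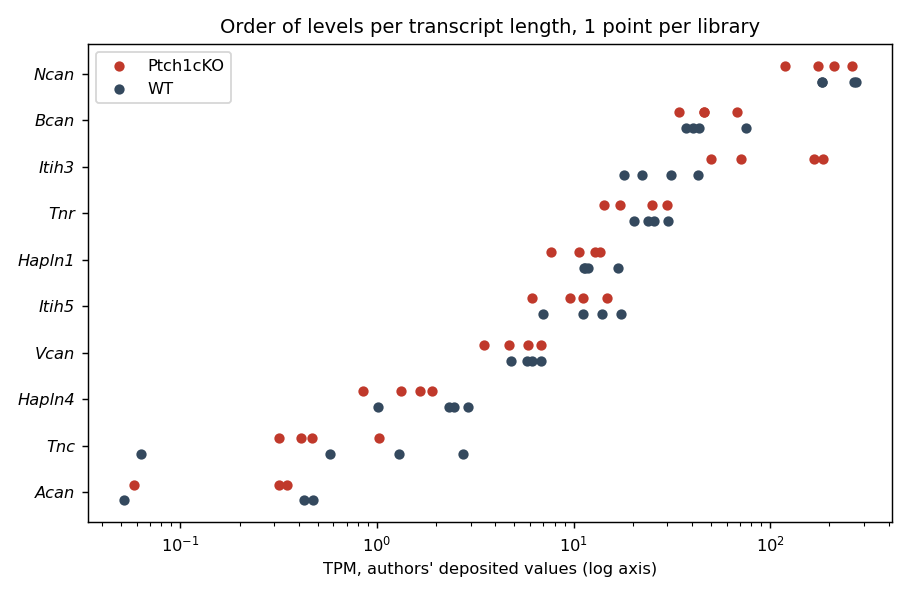
TPM deposited by the authors for the 10 genes on a log axis, 1 point per library, with Ptch1cKO above WT in each row. Acan was listed at 0 in Ptch1cKO replicate 2 and WT replicate 4, which are not drawn, and Ncan is the highest row at 119 to 260 TPM in Ptch1cKO and 183 to 272 TPM in WT.

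Genes with a profile most like that of Itih3 were sought among 6756 genes that averaged 10 CPM or more, by the root mean square distance between log2 CPM profiles over the 8 libraries, each centred on its gene's mean. The nearest was Gria1, an AMPA-type glutamate receptor subunit, at a distance of 0.39 log2 units. Gria1 had 579, 931, 451 and 910 CPM in Ptch1cKO replicates 1 to 4, against 242, 175, 305 and 255 CPM in WT replicates 1 to 4, so that the same 2 mutant libraries were high. Next came Col1a2, a fibrillar collagen chain, at 0.53, and Etnppl, an enzyme of phosphoethanolamine breakdown found in astrocytes, at 0.56. Col1a2 had 14.6 to 37.4 CPM in Ptch1cKO and 5.19 to 15.1 CPM in WT. Etnppl had 109 to 271 CPM in Ptch1cKO and 26.9 to 103 CPM in WT. The summed level of 9 mural and fibroblast markers, a list that holds Col1a2, was 31.7 to 59.5 CPM in Ptch1cKO and 22.03 to 49.8 CPM in WT. Col1a2 itself averaged 21.9 CPM of a mean sum of 41.8 CPM in Ptch1cKO, and 9.17 of 36.9 CPM in WT. Others of the list were not higher in Ptch1cKO, with Pdgfrb at 11.6 CPM against 11.7 CPM in WT and Rgs5 at 3.48 CPM against 9.75 CPM. The part of such cells in the Itih3 and Col1a2 values was not tested. For Ncan, the nearest were Dpy19l3, Gyk and Fgd6, at 0.09, 0.10 and 0.11. No other member of the matrix group lay near Itih3, the closest being Bcan at 1.05, which was 666th in the order of distance. These distances include the difference between genotypes, which was known when the members were chosen, so they partly restate it. A gene with little difference between genotypes could not lie near Itih3.

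The wider machinery of the hyaluronan matrix was examined as 6 lists with 101 entries, of which 59 genes had enough counts for the fit. By the edgeR quasi-likelihood test over all genes, 0 of the 59 were called higher and 0 lower in Ptch1cKO, beside the 0.0822% and 0.0183% of all genes. An unadjusted p under 0.05 was found for 9 of the 59, where it was found for 9.34% of all genes, and DESeq2 called 0 of the 45 to which it gave an adjusted p, beside 0.509% of all genes called higher and 0.365% lower, with 8 of the 59 below that unadjusted level. Fold changes were positive in 29 and negative in 30 of them, with a median of -0.0016 on the log2 scale. In the unfiltered table, where 199 of 20578 genes were called, 3 of 99 genes of the lists were called by edgeR, Cd74, Timp4 and Serpine2. Cd74 did not pass the filter of the main fit. It had 0.331 to 10.4 CPM in Ptch1cKO and 0.140 to 1.41 CPM in WT, with overlapping ranges.

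Hyaluronan itself is made at the cell surface by 3 synthases, and their transcripts were rare. Has1 had 2 counts in each group, Has2 had 14 in Ptch1cKO and 12 in WT, and Has3 had 4 in Ptch1cKO and 14 in WT. Of the 5 genes of hyaluronan synthesis, breakdown and reception that were fitted, 0 passed. Ugdh, the enzyme that makes the UDP-glucuronate precursor, had 19.1 ± 3.80 CPM in Ptch1cKO and 18.1 ± 4.57 CPM in WT (SD, n = 4 each). Hyal1, a lysosomal hyaluronidase, had 5.01 ± 1.34 CPM in Ptch1cKO and 2.67 ± 1.37 CPM in WT, with overlapping ranges (edgeR adjusted p = 0.523), and it shares exon sequence with Hyal3 and Naa80 on the same strand. Tmem2, a cell surface hyaluronidase, had 9.23 ± 4.36 CPM in Ptch1cKO and 11.02 ± 4.39 CPM in WT.

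None of the 8 other link proteins, heavy chains, light chain and tenascins reached the filter. Among 5 other chondroitin sulfate proteoglycans fitted, 0 passed. Ptprz1, a receptor phosphatase whose secreted form is phosphacan and binds tenascins, averaged 343 TPM over the 8 libraries, where Ncan averaged 209 TPM, and had 1066 ± 342 CPM in Ptch1cKO and 1028 ± 233 CPM in WT. Cspg5, neuroglycan C, had 73.7 ± 13.4 CPM in Ptch1cKO and 85.3 ± 18.5 CPM in WT, and Spock2, a testican, had 49.5 ± 10.1 CPM in Ptch1cKO and 44.7 ± 4.94 CPM in WT. Of 15 enzymes that build and sulfate chondroitin chains, 0 passed, with 8 positive and 7 negative fold changes. B3gat3, which adds the last sugar of the linker on which these chains grow, had 38.6 to 62.7 CPM in Ptch1cKO and 30.4 to 38.5 CPM in WT, the 1 gene of the 15 without overlap where 5.02% of all genes had none, and a log2 fold change of 0.61 (SE 0.19, edgeR adjusted p = 0.325). The log2 fold change was 0.30 (SE 0.28) for Chsy1, a chondroitin polymerase, and 0.21 (SE 0.16) for the sulfotransferase Chst11.

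Of 13 matrix proteases and their inhibitors, 0 passed and 4 had an unadjusted p under 0.05, as did 9.34% of all genes. The highest in mean TPM were Serpine2, the protease nexin that blocks thrombin and plasminogen activators, the metalloprotease inhibitor Timp4 and its relative Timp3. Serpine2 had 451 ± 103 CPM in Ptch1cKO and 308 ± 56.0 CPM in WT (log2 fold change 0.55, SE 0.17, edgeR adjusted p = 0.328). Timp4 had 123 ± 27.3 CPM in Ptch1cKO and 79.2 ± 21.3 CPM in WT (log2 fold change 0.64, SE 0.21, edgeR adjusted p = 0.361), and its exons overlap opposite-strand Syn2. Timp3 had a log2 fold change of 0.29 (SE 0.21), with Syn3 on the opposite strand. The groups of 2 of the 13 genes did not overlap, where this held for 5.02% of all genes, and both were singled out after their values were seen. Mmp2, a gelatinase, had 4.26 to 7.87 CPM in Ptch1cKO and 1.57 to 2.47 CPM in WT (log2 fold change 1.46, SE 0.37, edgeR adjusted p = 0.231). Mmp16, a membrane-bound metalloprotease, had 17.4 to 34.8 CPM in Ptch1cKO and 36.8 to 41.3 CPM in WT (log2 fold change -0.66, SE 0.21, edgeR adjusted p = 0.349). The lectican-cleaving proteases Adamts4 and Adamts5, also chosen after their values were seen, had log2 fold changes of -0.03 (SE 0.30) and -0.52 (SE 0.44).

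Of 21 receptors and partners of lecticans and tenascins, 0 passed, with 9 positive and 12 negative fold changes and a median of -0.05. The cell adhesion molecule Cntn1, a tenascin receptor, had 284 ± 76.8 CPM in Ptch1cKO and 253 ± 64.5 CPM in WT. Nrcam, a neuronal adhesion molecule, had 316 ± 88.9 CPM in Ptch1cKO and 266 ± 48.0 CPM in WT. The integrin chain Itgb1 had 153 ± 31.6 CPM in Ptch1cKO and 148 ± 18.8 CPM in WT (SD, n = 4 each).

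**Figure D5:**
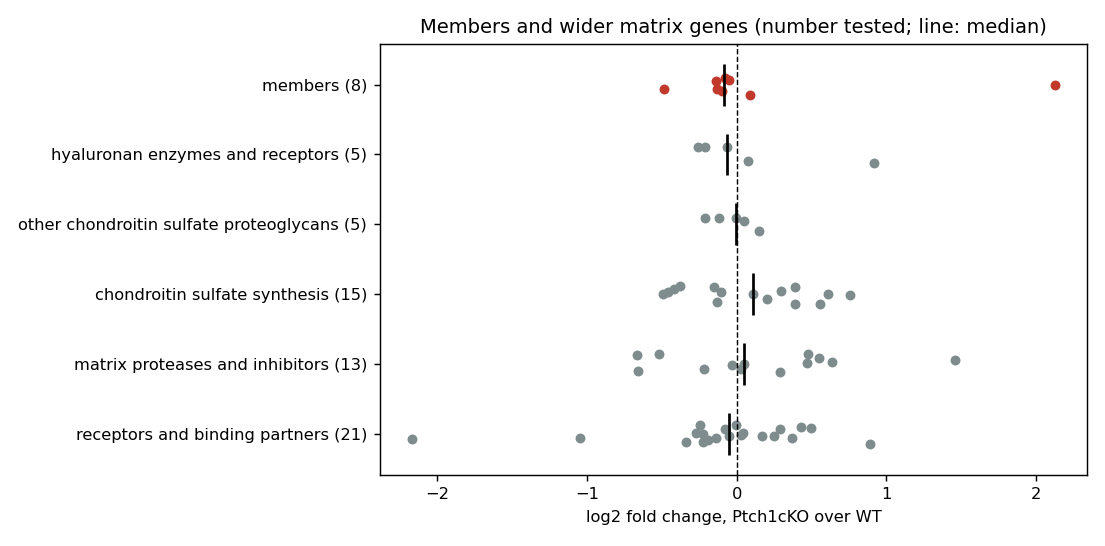
Log2 fold change of Ptch1cKO over WT for the 8 members above the filter (red) and the 59 fitted genes of 5 wider matrix lists (grey), 1 point per gene with a line at each median. The medians lie between -0.09 and 0.11, and the member farthest from 0 is Itih3 at 2.13.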

How the data were processed

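The authors deposited raw read counts by gene symbol for 8 libraries, and a table of TPM, which the authors scaled for transcript length and depth. Once a factor per library was removed, count divided by TPM varied across libraries by no more than 1.0001-fold for any member. Per the submitters' processing notes, bcl2fastq 2.18 and STAR 2.5 were used with the build mm10. No counting program, annotation or strand setting is named in the sources used here. Exome capture is stated in the labels' protocols. Column names carry prefixes that the labels do not explain, and no prefix spans both genotypes, so its part cannot be told apart from genotype. Inside WT, replicates 1 and 2 share a prefix and replicates 3 and 4 share another. Ncan was 491 and 479 CPM in the first pair and 716 and 673 CPM in the second. Ptch1 was 285 and 227 CPM against 491 and 425 CPM, and the astrocyte marker sum split the same way. Itih3 did not, at 32.6 and 18.1 CPM against 43.7 and 21.8 CPM. The part of the prefix in these values was not tested.

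The counts were fitted with edgeR 4.0.16 in R 4.3.3 (filterByExpr with a minimum count of 10, TMM scaling, robust glmQLFit and the quasi-likelihood F test with the group as the only term, Benjamini-Hochberg adjusted p under 0.05). The SE of a log2 fold change is derived from the F statistic, and its 95% interval uses the test's degrees of freedom. CPM uses TMM-scaled library sizes. DESeq2 1.42.0 and limma 3.58.1 on log2(TPM + 1) were alternatives. Gene positions are from GENCODE M21 on GRCm38 and promoters from RefSeq. None of the 28 pairs of libraries agreed within sampling noise (chi-square test), and the edgeR step was tested on simulated data.

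The members and lists were chosen with earlier results of these data known. Named were all members, Ptch1, every called gene of a wider list or else its 3 fitted genes with the highest TPM, and the 3 nearest profiles of the member with the largest difference and of the most abundant member. Counts of rare members, neighbours and genes said to be singled out fall outside that rule.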

Additional observations from a re-analysis of the deposited data

Results flagged for a closer look

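One library stood apart from the other 3 of its group. Hapln1 had 30.9 CPM in WT replicate 3, whereas WT replicates 1, 2 and 4 had 21.2, 21.5 and 20.2 CPM. The gap to the nearest library exceeded the critical share of the group's range in 1 of 20 groups examined, which is about as many as chance gives. WT replicate 3 was also the highest WT library for Bcan, Ncan and Itih3.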

How the results depend on the processing

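The fold changes of the 8 fitted members were recomputed in 16 other settings each, 128 values in all. All lay within 1 SD between replicates of the value given. Leaving out a single library moves a group mean by only a part of that group's SD. Such refits could hardly have crossed this limit, so for them the result says little about how stable the fold changes are. Itih3 stayed between 1.85 and 2.40 on the log2 scale (2.02 with the replicate number as a block, 2.23 without the 2 WT libraries over 10 Xist counts), and Hapln4 stayed below 0 (-0.71 to -0.13). Itih3 was called in 2 of the 16 settings, with DESeq2 (2.13) and without Ptch1cKO replicate 3 (2.36), its lowest mutant library. No other member was called in any, Hapln4 having no adjusted p from DESeq2. Since the members were chosen with this contrast known, the calls are a description only. The sign turned for Bcan in 6 settings, Vcan and Hapln1 in 3 each, Itih5 and Tnr in 2 each and Ncan in 1.

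The count of all genes called moved from the 11 given to 79 with DESeq2, 199 with no filter on low counts, 5 with the replicate block and 3 without the libraries over 10 Xist counts. Leaving out single libraries gave 1 to 19, namely 6, 19, 4 and 2 without Ptch1cKO replicates 1 to 4, and 2, 1, 1 and 1 without WT replicates 1 to 4. The cause was not tested. The count over the wider lists was 0 except for 3 without the filter. Same-numbered libraries of the 2 genotypes had correlations of their deviations of -0.17 to 0.02, so the numbers were not taken as pairs. These are the numbers of the sample titles. Column names and descriptions number Ptch1cKO replicates 3 and 4 as 4 and 5, and that numbering pairs Ptch1cKO replicate 3 with WT replicate 4, at a correlation of -0.09. With the median in place of the mean, 8 of 10 members kept their place in the WT order of TPM and 10 of 10 in Ptch1cKO. Of 70 recomputed marker differences, 9 turned sign and none passed (permutation test, smallest adjusted p = 0.40). A single list could not have passed in any of these settings either. Counts limit Acan, Tnc and Hapln4.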
